A study of Mus musculus with 6 samples.

Results

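Interferon-stimulated genes are the genes whose transcription rises when a cell senses interferon, and 36 of them were followed here by symbol in a table of 16671 genes. All 36 had a row. They comprised 22 antiviral effectors, 4 guanylate-binding proteins, 5 transcription factors and feedback genes, 3 sensors of foreign or misplaced nucleic acid and 2 chemokines. RNA was sequenced with a low-input method from fibro-adipogenic progenitors (FAPs), the stromal cells between muscle fibres, sorted from hind limb muscles of wild type mice aged 4 to 5 months. One group of 3 libraries came from cells given vehicle and the other group of 3 from cells given C1q, the recognition protein of the classical complement pathway, at 100 ug/ml. Every library started from 10 ng of RNA, and both groups were of the same genotype. The labels do not say how long the cells were exposed, or whether replicates came from separate mice, so every p-value rests on the spread among these libraries alone, and that spread may be technical. The extraction text of the labels speaks of muscle stem cells where the cell type label says FAPs.

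Type I interferons bind the receptor made by Ifnar1 and Ifnar2, whose kinases Jak1 and Tyk2 phosphorylate Stat2 among others. Together with Irf9, Stat2 is part of a complex that binds a DNA element called the interferon-stimulated response element (ISRE). Interferon gamma binds the receptor made by Ifngr1 and Ifngr2 and acts through the gamma-activated site (GAS), which drives guanylate-binding proteins and chemokines such as Cxcl9. Stromal cells of many tissues keep a low tonic expression of these genes without infection.

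The promoters of 6 members are shown so that the sequence before members that rose with C1q can be read beside that of classical effectors that were not called. They are the 4 called members of lowest p and the 2 uncalled members of highest level per kilobase, among those with a RefSeq start site sequence (build GRCm38.p6). Each run reads 5′ to 3′ on the gene's strand. For 5 genes the run holds the 250 bases before the start site used, and the run of Ifih1 is the last 30 bases of its window, after the start. The runs of Ifit3 and Ifit3b lie inside the annotated genes, which begin at 34583119 and 34607530, because the start sites used lie further downstream. Capitals mark matches to the core of the ISRE (GAAA, any 2 bases, GAAA) or to TTCNNNGAA, the core of the GAS, on either strand. The windows lie at chr3:142620413-142620662 (Gbp2, plus strand), chr3:142496684-142496933 (Gbp5, plus), chr4:156200819-156201068 (Isg15, minus), chr19:34583279-34583528 (Ifit3, plus), chr19:34607707-34607956 (Ifit3b, plus) and chr2:62646206-62646235 (Ifih1, minus).
Gbp2: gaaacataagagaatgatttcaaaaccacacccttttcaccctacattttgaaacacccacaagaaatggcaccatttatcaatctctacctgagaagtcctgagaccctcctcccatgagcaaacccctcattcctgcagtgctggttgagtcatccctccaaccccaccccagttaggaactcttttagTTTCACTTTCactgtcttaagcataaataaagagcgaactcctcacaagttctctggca
Gbp5: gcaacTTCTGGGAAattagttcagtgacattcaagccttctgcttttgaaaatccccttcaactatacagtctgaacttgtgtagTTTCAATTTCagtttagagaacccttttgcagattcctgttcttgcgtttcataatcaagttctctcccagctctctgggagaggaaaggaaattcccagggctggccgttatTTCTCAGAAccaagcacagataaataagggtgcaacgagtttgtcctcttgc
Isg15: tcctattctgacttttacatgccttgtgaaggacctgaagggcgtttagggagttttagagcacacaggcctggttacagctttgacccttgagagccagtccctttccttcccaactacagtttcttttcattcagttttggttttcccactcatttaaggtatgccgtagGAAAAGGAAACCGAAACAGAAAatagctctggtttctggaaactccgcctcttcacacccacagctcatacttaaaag
Ifit3: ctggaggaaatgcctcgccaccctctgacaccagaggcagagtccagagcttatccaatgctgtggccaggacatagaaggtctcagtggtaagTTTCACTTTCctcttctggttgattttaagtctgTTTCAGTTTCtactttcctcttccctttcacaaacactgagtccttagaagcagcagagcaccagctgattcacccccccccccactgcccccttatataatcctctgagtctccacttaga
Ifit3b: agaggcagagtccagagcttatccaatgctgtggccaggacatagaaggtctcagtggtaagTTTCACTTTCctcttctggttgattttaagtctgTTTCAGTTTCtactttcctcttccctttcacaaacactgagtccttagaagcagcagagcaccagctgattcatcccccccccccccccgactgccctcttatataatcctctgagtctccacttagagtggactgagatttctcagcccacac
Ifih1: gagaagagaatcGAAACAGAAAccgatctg

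Gbp2 has 1 ISRE match, at bases -59 to -50 from the start, and Gbp5 has 1 ISRE match at -165 to -156 and 2 GAS matches, at -245 to -237 and -52 to -44. In Isg15 3 overlapping ISRE matches run together from -78 to -57. Ifit3 and Ifit3b, neighbouring copies on chromosome 19, each have 2 ISRE matches with the same letters. In an alignment of their 300-base windows 259 of 260 paired bases were identical, and the remaining bases of each window were left unpaired. The Ifih1 match lies after the start, at 33 to 42. Over the windows of 250 bases before to 50 after the start, 28 of the 36 members had a sequence. An ISRE match was found in 17 of those 28 genes (60.7%) against 3.99% of all 27025 genes with a window, and a GAS match in 7 (25.0%) against 9.55%. Counted per window, the shares of all 32851 windows were 3.44% and 8.30%. All 6 members called higher that had a window held an ISRE match, as did the 1 called lower, Bst2, and 10 of the 21 not called. By role it was found in 4 of 4 guanylate-binding proteins, 2 of 2 sensors, 9 of 16 effectors, 1 of 4 transcription factors and feedback genes and 1 of 2 chemokines with a window. For the GAS these counts were 2 of 4, 0 of 2, 4 of 16, 1 of 4 and 0 of 2, in the same order. By call a GAS match was found in 2 of the 6 higher, the 1 lower and 4 of the 21 not called. These matches describe letters in a window, not sites bound by a factor.

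Values are normalised read counts, reads per gene divided by a size factor for each library, and a gene was called when its Benjamini-Hochberg adjusted p over all genes was below 0.05 in limma-trend on log2(value + 1). The libraries held 5379209 to 38861152 reads. Control 3 was the shallowest, with 1 read worth 4.25 units against 0.583 to 0.975 in the others. Markers of FAPs were abundant in all 6 libraries, while genes of the myogenic lineage were also present and differed between the libraries. The summed value of 7 satellite cell and myoblast markers was 19791, 10887 and 5628 in controls 1, 2 and 3 and 3872, 5212 and 4787 in C1q 1, 2 and 3. Of those 7 markers 5 were called lower and 0 higher with limma (71.4% and 0%, beside 18.7% and 19.7% of all genes). At an unadjusted p below 0.05, 6 were lower and 0 higher. The counts were 5 and 0 with edgeR, which tested 5 of them, and 6 and 0 with DESeq2. Pax7, the defining satellite cell gene, was at 0 to 7.57. In such bulk samples fewer cells of a type and less RNA per cell cannot be told apart. Among the 12 leukocyte markers with a row, 0 were called higher and 1 lower (0% and 8.33%, beside 19.7% and 18.7% of all genes). The counts were also 0 and 1 at an unadjusted p below 0.05, with edgeR, which tested 7 of them, and with DESeq2. The summed values of these markers were 594 to 829 in controls and 499 to 902 with C1q. No row was found for the leukocyte gene Ptprc, and the macrophage gene Adgre1 was at 0 in control 3 and C1q 1, at 0.583 to 5.40 in 3 libraries and at 21.4 in C1q 2.

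With C1q, 7 of the 36 members rose and 1 fell, and the other 28 were not called. Over all genes 19.7% were called higher and 18.7% lower, so the share of members that rose (19.4%) was that of any gene, and the share that fell (2.78%) was below it. The median log2 fold change of the members was 0.41, beside 0.03 over all genes, and 28 of the 36 differences were positive. On the recovered reads edgeR, which tested 34 of the members, called 8 higher and 1 lower (23.4% and 25.1% of all genes it tested). DESeq2 also called 8 and 1 (19.6% and 19.2% of all genes), and both added Gbp3. The calls differed in number between the roles. Among guanylate-binding proteins 3 of 4 rose, among nucleic acid sensors 2 of 3, among antiviral effectors 2 of 22 with 1 fall, and among transcription factors and feedback genes and the chemokines 0 of 7. These counts in small classes moved with single libraries. Without C1q 3, 2 guanylate-binding proteins, 0 sensors and 0 effectors rose with limma, beside 14% of all genes. With a trend on transcript length removed the counts were 2, 0 and 2, beside 14.6% of all genes. All 3 C1q libraries lay above all 3 controls for 8 members and below them for 1, against 26.8% and 25.4% of all genes.

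**Figure D1:**
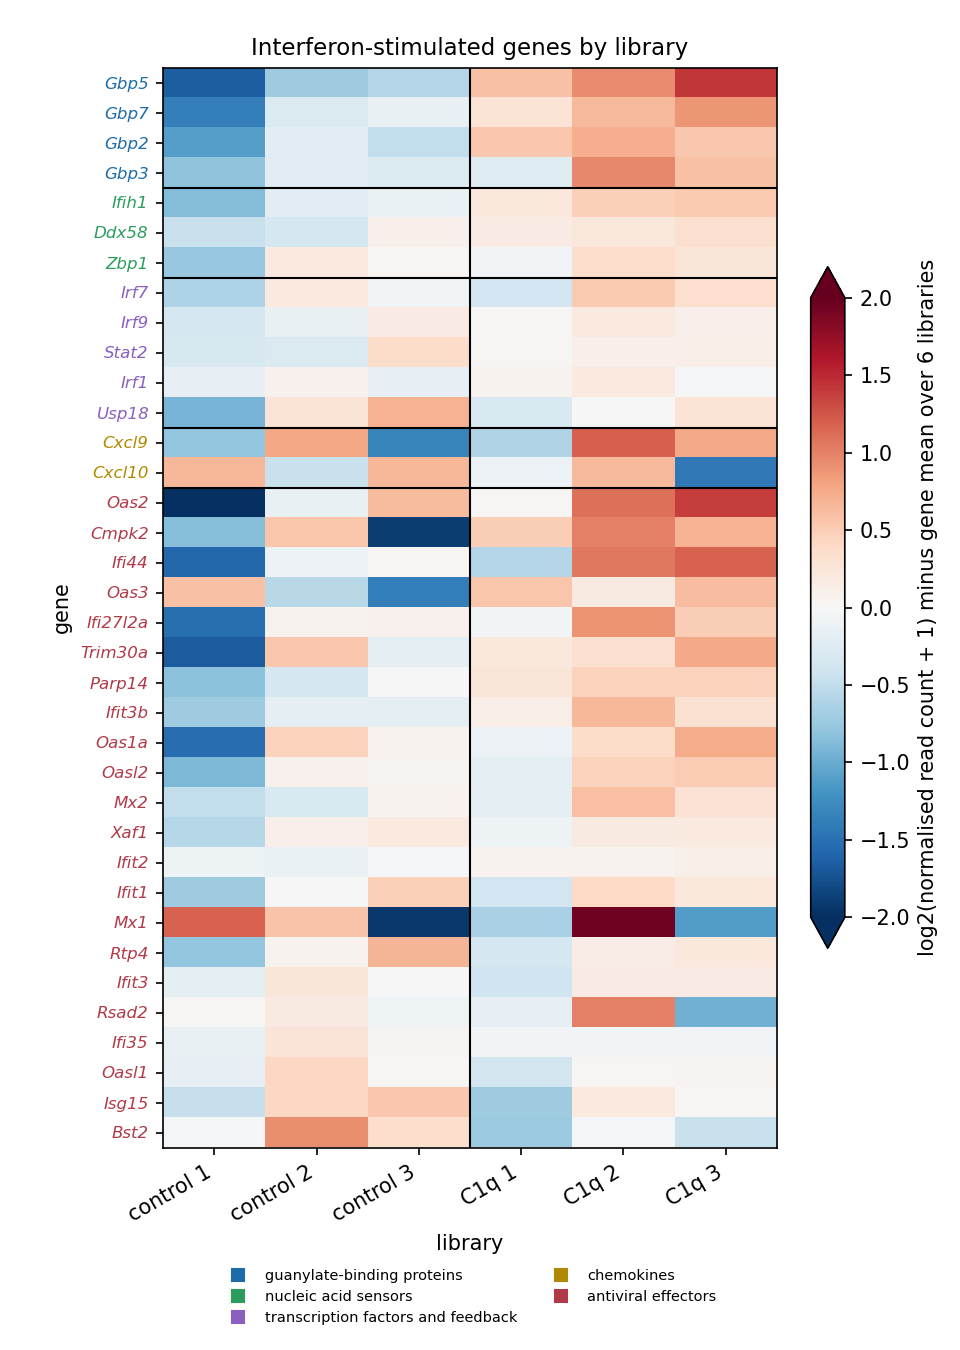
Heat map of the 36 members (rows, grouped by role and coloured as in the legend) in the 6 libraries (columns), showing log2(normalised read count + 1) minus the gene's mean over the libraries. Colours saturate at 2 in either direction, and control 1 is the lowest of the 6 libraries for 24 members.

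Guanylate-binding proteins are large GTPases that coat the vacuoles of intracellular pathogens and help to trigger inflammasomes. Of the 4 members of this family 3 rose, and all 4 differences were positive. The 4 genes lie in the same stretch of chromosome 3, between 142496934 (start of Gbp5) and 142638008 (end of Gbp2) in GRCm38. Their median log2 fold change was 1.20. All 4 were called with edgeR, DESeq2 and the replicate block, and 2 with a trend on transcript length removed.

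Gbp2 (Entrez gene 14469) stood at 293, 543 and 446 in controls 1, 2 and 3 and at 912, 1040 and 909 in C1q 1, 2 and 3. The lowest C1q library was well above the highest control. The mean went from 427 ± 126 to 954 ± 74.6 (SD, n = 3), a log2 fold change of 1.20 ± 0.21 (SE) with an adjusted p of 0.00334 in limma. Without any 1 library the adjusted p stayed between 0.00228 and 0.0175, with edgeR it was 0.00404, and with all libraries thinned to the depth of control 3 it was 0.0147.

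Gbp5, which assembles on bacterial membranes and promotes NLRP3 activity, was at 15.7, 30.9 and 34.01 in the controls and at 77.5, 99.4 and 140 with C1q. This was the largest fold change among the members, 1.96 ± 0.35 on the log2 scale, with groups far apart and a limma adjusted p of 0.00384. It rests on few control reads (27, 40 and 8), and after thinning to the shallowest library the log2 fold change was 2.25 with an adjusted p of 0.0612.

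Gbp7 was at 85.7, 182 and 200 in the controls and at 269, 351 and 412 with C1q, so the groups did not overlap (log2 fold change 1.21 ± 0.32 SE, limma adjusted p 0.0210). The call was lost without C1q 2 (adjusted p 0.0662) or C1q 3 (0.0761). With a trend on transcript length removed the change was 0.91, with an adjusted p of 0.0704. Gbp3 was at 144, 218 and 208 in the controls and at 214, 493 and 378 with C1q. C1q 1 lay within the controls, and the gene was not called (0.87, limma adjusted p 0.0580), but edgeR (0.0441) and a fit with the replicate number as a block (0.00383) called it. Gbp3 and Gbp7 share 81.5% identity over 1626 aligned bases, and Gbp2 shares 83.8% with Gbp2b, for which no row was found.

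**Figure D2:**
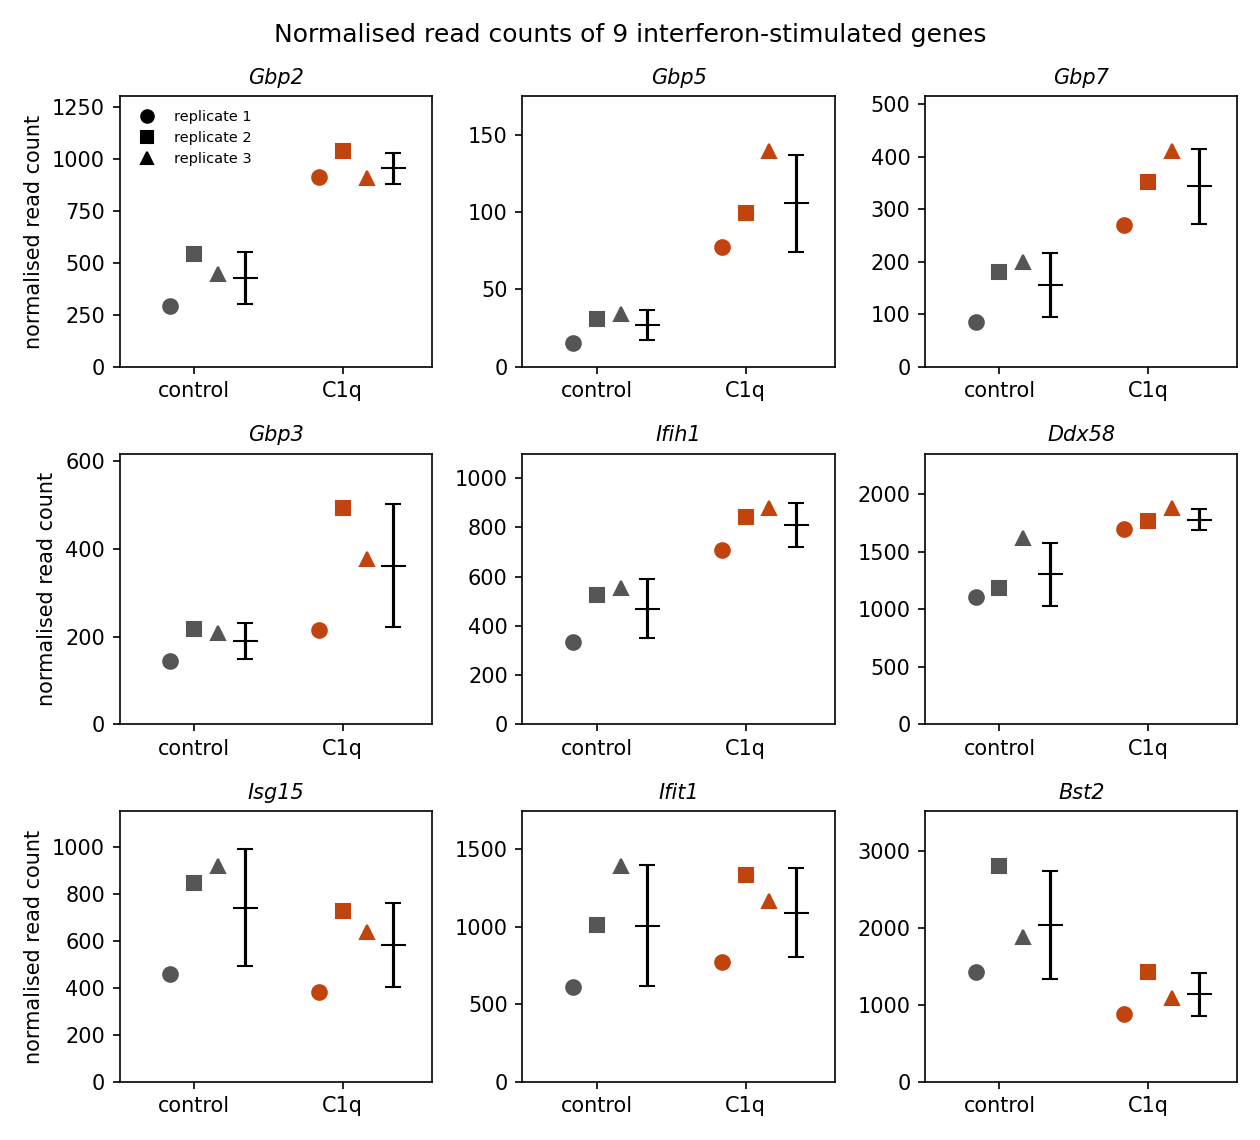
Normalised read counts (linear axes from 0) of 9 members in control and C1q libraries, with the replicate number as the marker shape and mean ± SD beside each group. The 3 C1q points lie above all controls for Gbp2, Gbp5, Gbp7, Ifih1 and Ddx58, and the groups overlap for Gbp3, Isg15 and Ifit1.

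Of the nucleic acid sensors, Ifih1 encodes MDA5, a cytosolic detector of long double-stranded RNA (Entrez gene 71586, chromosome 2, 62595618 to 62646255). It was at 334, 526 and 553 in the controls and at 708, 844 and 879 with C1q. No C1q library fell within the control range. The log2 fold change was 0.81 ± 0.19 (SE) with a limma adjusted p of 0.0134. The adjusted p was 0.0520 without C1q 3 and 0.0804 (log2 fold change 0.53) with the length trend removed.

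Ddx58, which encodes RIG-I, the sensor of RNA with an uncapped 5′ end, was at 1110, 1181 and 1615 in the controls and at 1695, 1762 and 1877 with C1q. Control 3 came close to the lowest C1q library. The change of 0.47 ± 0.14 (SE, limma adjusted p 0.0306) was lost without any library other than control 3 (adjusted p 0.0653 to 0.0993), and was 0.37 with an adjusted p of 0.0854 with the length trend removed. Zbp1, a sensor of Z-form nucleic acid that can start necroptosis, was at 174, 336 and 302 against 282, 374 and 350, overlapping and not called (limma adjusted p 0.297).

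Of the 22 antiviral effectors Parp14 and Ifit3b rose and Bst2 fell. Parp14, an ADP-ribosyltransferase, was at 469, 649 and 825 in the controls and at 974, 1143 and 1135 with C1q, with no overlap (log2 fold change 0.78 ± 0.19 SE, limma adjusted p 0.0150). Its transcript is the longest among the members, 7417 bases, and with the length trend removed the change was 0.34 with an adjusted p of 0.214. The call was also lost without C1q 2 (adjusted p 0.0552) or C1q 3 (0.0536).

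Ifit3b, of the IFIT family that binds foreign RNA, was at 132, 188 and 187 in the controls and at 236, 342 and 266 with C1q (0.74 ± 0.19 SE, limma adjusted p 0.0199). The adjusted p was 0.0727 without C1q 2 and 0.0536 without C1q 3. Its neighbour Ifit3 was at 853, 1143 and 961 against 734, 1080 and 1077 (-0.04, adjusted p 0.863). The 2 transcripts are 97.8% identical over 1700 bases, so how their reads were divided is uncertain. Summed, the pair was at 984, 1330 and 1148 in the controls and 970, 1422 and 1342 with C1q, which overlap, with a log2 difference of 0.10.

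Bst2 encodes tetherin, which holds budding virus particles on the cell surface, and had the highest level per kilobase of transcript among the members. It was at 1437, 2816 and 1892 in the controls and at 886, 1437 and 1095 with C1q, so that C1q 2 and control 1 differed by less than 1 unit. The log2 fold change was -0.82 ± 0.26 (SE), with a limma adjusted p of 0.0398. The call was lost without control 2 (adjusted p 0.0895), control 3 (0.0603), C1q 1 (0.128) or C1q 3 (0.102). Its transcript has 792 bases, and with the length trend removed the change was -0.21 (adjusted p 0.527).

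Most of the classical type I effectors showed no call. Isg15, the ubiquitin-like modifier, was at 459, 846 and 923 in the controls and at 385, 728 and 641 with C1q. The groups overlapped, with a log2 fold change of -0.33 (limma adjusted p 0.443) that became 0.30 with the length trend removed. A transcript 95.2% identical over 482 bases exists at another locus, so its reads are uncertain. Ifi27l2a, of the Ifi27 family of small hydrophobic proteins, was at 164, 491 and 497 in the controls and at 450, 868 and 657 with C1q. Only control 1 was far below the rest (0.89, limma adjusted p 0.152), and with the length trend removed the gene was called, at 1.77 with an adjusted p of 0.0190. Its transcript, of 463 bases, is the shortest among the members with a length. The median of the shortest length decile of all genes was 1035 bases, so this adjustment lies at the short end of the fitted trend.

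Ifit2 was at 611, 602 and 642 in the controls and at 691, 695 and 718 with C1q. Its groups did not overlap, but the difference was small (0.18, limma adjusted p 0.0715). Ifit1, which binds RNA that lacks cap methylation, was at 614, 1014 and 1394 against 773, 1334 and 1165 (0.16, adjusted p 0.724). Rsad2, which encodes viperin, was at 27.4, 30.9 and 25.5 against 24.0, 55.6 and 13.4, the C1q libraries lying on both sides of the controls (-0.08, and 0.07 with edgeR). In the 2′-5′ oligoadenylate synthetase family, whose enzymes activate RNase L or bind RNA, control 1 was the lowest library for Oasl2, Oas2 and Oas1a. Oasl2 was at 591, 1182 and 1148 against 963, 1521 and 1574, and Oas2 at 4.66, 39.4 and 68.0 against 44.4, 94.5 and 116. Oas1a was at 30.3, 122 and 93.5 against 81.7, 114 and 149, and its transcript is 97.6% identical to that of Oas1g over 1861 bases. The dynamin-like GTPase gene Mx1 (0 to 13.6) and Oas3 (0 to 2.99) were near the detection limit in every library.

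Ifi44 was at 67.6, 185 and 208 in the controls and at 134, 422 and 458 with C1q. C1q 1 lay inside the control range, and the difference of 1.10 was not called (limma adjusted p 0.168). Cmpk2, a mitochondrial nucleotide kinase gene, was at 18.6, 51.0 and 8.50 against 48.6, 70.2 and 56.0, with control 2 above C1q 1 (1.46, adjusted p 0.0794). Trim30a, of the tripartite motif family, was at 152, 706 and 429 against 560, 607 and 820. Control 1 was again far below the rest (0.86, limma adjusted p 0.210). The groups also overlapped for Mx2 (34.4 to 51.0 against 43.0 to 74.1), Xaf1 (204 to 349 against 282 to 350), Rtp4 (354 to 974 against 474 to 703), Ifi35 (469 to 625 against 498 to 500) and Oasl1 (55.9 to 84.2 against 48.6 to 65.0). These 5 genes had log2 fold changes of -0.18 to 0.48 and limma adjusted p of 0.206 to 0.983. The sign of the Ifi35 difference, -0.11, turned to 0.23 with the length trend removed, and that of Rtp4, 0.01, to -0.03 with edgeR.

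None of the 5 transcription factors and feedback genes was called with limma, edgeR or DESeq2, and 0 had an unadjusted p below 0.05. Stat2 was at 1852, 1892 and 2993 in the controls and at 2357, 2503 and 2544 with C1q, where control 3 was the highest of all (0.17, limma adjusted p 0.474). Irf9, its partner in the ISRE-binding complex, was at 927, 1063 and 1318 against 1191, 1339 and 1259 (0.21 ± 0.13 SE, adjusted p 0.233). Without control 3 the limma adjusted p was 0.00312 for Stat2 and 0.0184 for Irf9.

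Irf1, a transcription factor induced by interferon gamma, was at 682, 812 and 680 in the controls and at 798, 876 and 753 with C1q (0.16 ± 0.10 SE, adjusted p 0.237). With the length trend removed Irf1 was called, at 0.30 with a limma adjusted p of 0.0307. Irf7, the amplifier of type I interferon production, was at 392, 690 and 582 against 460, 866 and 761 (0.31, adjusted p 0.407). Usp18, which shuts off the receptor and removes the Isg15 protein from its targets, was at 103, 237 and 319 against 159, 197 and 238 (-0.02, and 0.20 with the length trend removed). Exons of Phrf1 overlap Irf7 on the other strand, and without a stated strand setting such reads cannot be told apart. The same holds for exons on the other strand of Oasl1, Ifi35, Gbp2, Irf1, Usp18 and Cxcl10, and exons of another gene on the same strand overlap Parp14, Gbp7, Rtp4 and Irf9.

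The chemokine genes, whose products draw T cells, were weakly expressed, with 2 to 55 reads of Cxcl9 and 3 to 22 of Cxcl10 in a library. Cxcl9 was at 12.8, 40.2 and 8.50 in the controls and at 14.8, 53.6 and 39.6 with C1q, and Cxcl10 at 12.8, 5.40 and 12.8 against 7.05, 12.7 and 2.24. Neither was called with limma (adjusted p 0.315 and 0.486), edgeR or DESeq2, and 0 of the 2 had an unadjusted p below 0.05. Per kilobase of longest transcript, the mean over 6 libraries ran from 2012 for Bst2, 1126 for Ifi27l2a, 878 for Isg15, 558 for Ifit3 and 536 for Stat2 down to 7.03 for Rsad2, 3.96 for Cxcl10 and 0.404 for Oas3. Gbp2 was at 275 on that scale and Gbp5 at 17.6, so the member with the largest fold change was among the weakly expressed.

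**Figure D3:**
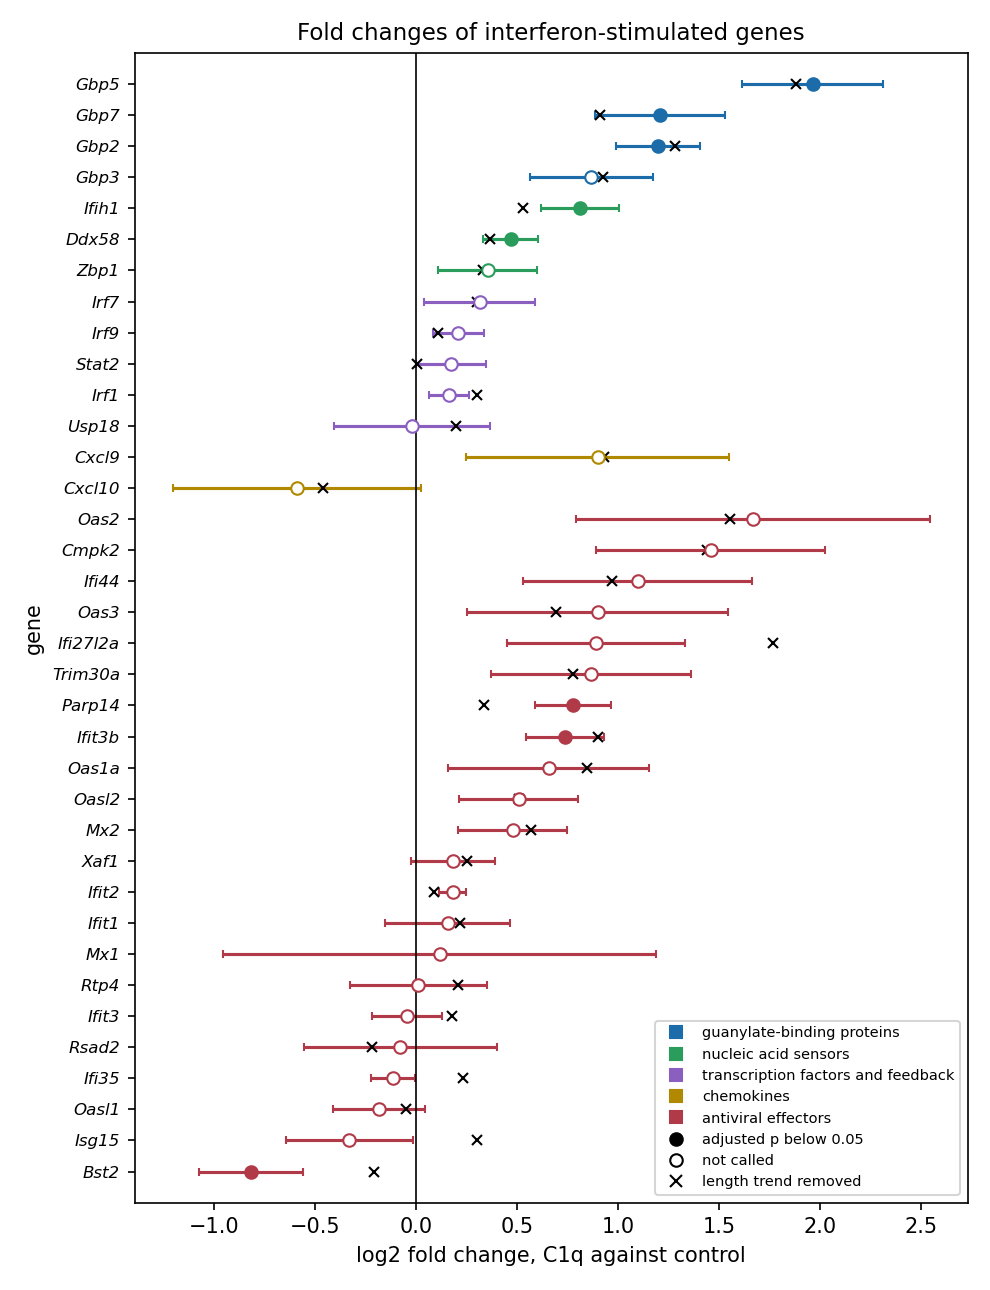
Log2 fold change of each member with its standard error (horizontal axis, C1q against control), filled where the limma adjusted p is below 0.05, and crosses for the value once a trend on transcript length is removed. Gbp5, Gbp7 and Gbp2 lie at 1.96, 1.21 and 1.20, and the crosses of Isg15 and Bst2, at 0.30 and -0.21, lie to the right of their circles.

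The libraries within a group differed in a shared way. Control 1 was the lowest of the 6 libraries for 24 of the 36 members, against 2476 of 16671 genes, and the lowest of the 3 controls for 28. The median member stood 0.71 log2 units below its own mean in control 1, 0.07 and 0.03 above it in controls 2 and 3, 0.09 below it in C1q 1, and 0.43 and 0.30 above it in C1q 2 and 3. C1q 1 was the lowest of its group for 29 members. The highest library was C1q 2 for 14 members and C1q 3 for 12.

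Control 1 was also the library with the most myogenic transcripts, 19791 summed units against 3872 to 10887 in the others, and with the lowest summed value of the 10 FAP markers, 369099 against 462776 to 841626. Of those 10 markers 7 (70%) were themselves called higher with C1q and 3 were not called. Of 6 pericyte and smooth muscle markers 3 (50%) were called higher, and the share of all genes called higher was 19.7%. Of 8 endothelial markers 1 was called lower (12.5%, beside 18.7% of all genes) and the rest were not called. Of 8 T and NK cell markers 2 had a row, neither of them called. C1q 2, the highest for 14 members, had the highest summed leukocyte marker value, 902, with control 3 next at 829. Of those 12 markers control 1 was the highest of the 6 libraries for 5, C1q 2 for 4, control 2 for 2 and control 3 for 1. The part of either cell type in the members' levels was not tested. Without control 1 the median log2 fold change of the members was 0.18 in place of 0.41, and 6 members were called higher and 1 lower (16.8% and 15.5% of all genes). Without C1q 2 the counts were 3 and 1 (14% and 14.1% of all genes), and without C1q 3 they were 2 and 0 with limma (14% and 13.6%; 7 and 1 at an unadjusted p below 0.05). As shares of the 36, the 8.33% and 5.56% that rose in those fits lay below the share of all genes.

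**Figure D4:**
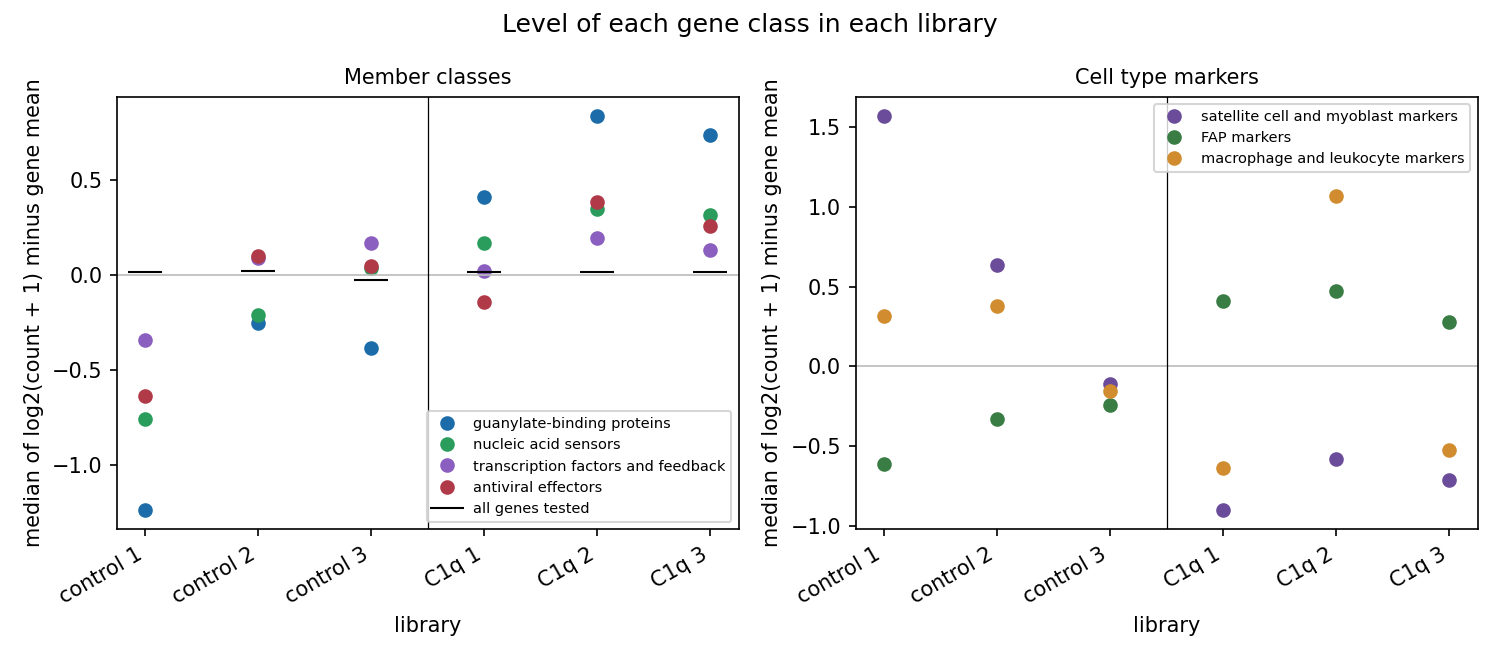
Median over the genes of a class of log2(count + 1) minus the gene's mean over the libraries, for each library, in member classes and all genes (left) and in cell type markers (right); the chemokines are not drawn. Control 1 is lowest in all 4 classes, all genes stay within 0.03 of 0, and the myogenic markers are highest in control 1 (1.57).

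Over all genes the deviations of same-numbered libraries of the 2 groups were weakly correlated (0.123, 0.175 and 0.132). Over the members the correlations were 0.39, 0.11 and 0.48 for numbers 1, 2 and 3. Control 1 with C1q 2 (0.37) and control 2 with C1q 3 (0.31) lay above that of number 2. The other differently numbered pairs were negative over the members. The block fit rests on a pairing read from these same data. With the replicate number as a block, 14 members were called higher and 2 lower, against 21.3% and 19.7% of all genes in that fit. All 8 members called without the block kept their call. The 8 gained were Gbp3 (limma adjusted p 0.00383), Ifi44 (8.81e-04), Oasl2 (0.00445), Ifi27l2a (0.0103), Irf7 (0.0196), Oas2 (0.0232) and Cmpk2 (0.0322), all higher, and Isg15 (0.0274), lower. Isg15 was below its same-numbered control in 3 of 3 pairs, by 0.25, 0.22 and 0.52 log2 units. The median member differed by 0.44, 0.41 and 0.31 in the pairs numbered 1, 2 and 3. Without both libraries numbered 1, an alternative chosen after seeing the data, 10 members were called higher and 1 lower (10.8% and 10.1% of all genes).

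Fold change moved with transcript length. Over the 35 members with a length Spearman's rho between the longest transcript and the log2 fold change was 0.49, and over 14933 genes it was 0.38; genes share their libraries and are not independent replicates. The median log2 fold change over all genes was -0.44 in the shortest length decile and 0.46 in the longest. With that trend removed, 5 members were called higher and 0 lower with limma (14.6% and 18.8% of all genes with a length), and the members' median was 0.34 beside -0.01. Gbp2, Gbp5 and Ifit3b kept their calls, Ifi27l2a and Irf1 gained one, and Parp14, Gbp7, Ifih1, Ddx58 and Bst2 lost theirs. With both the trend removed and the block, 14 members were called higher and 0 lower (16.3% and 20.3%), among them all 4 guanylate-binding proteins and the sensors Ifih1 and Ddx58.

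**Figure D5:**
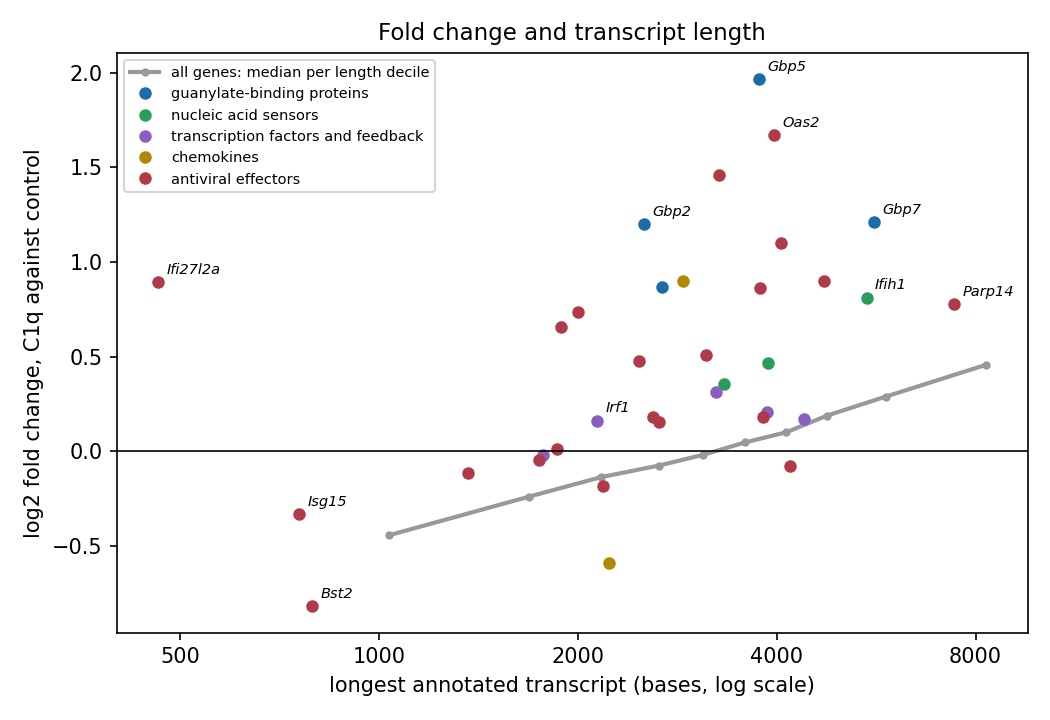
Log2 fold change of the 35 members with a length against the longest annotated transcript (bases, log axis), coloured by role, with the grey line giving the median of all genes in each length decile. The line climbs from -0.44 to 0.46, and Gbp2, Gbp5 and Ifi27l2a lie well above it.

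Of the interferon genes themselves 21 were looked for and 1, Ifnz, had a row, at 0 to 3.74, not called. No row was found for Ifnb1, Ifng or any Ifna gene, and the lowest mean of any gene in the table was 1.00. Among 10 receptor and signalling genes 5 rose and 0 fell with limma, beside 19.7% and 18.7% of all genes. At an unadjusted p below 0.05 the counts were 6 and 0. They were 5 and 0 with edgeR, which tested 9 of the genes, and with DESeq2. With the length trend removed 2 of the 10 rose (20%, beside 14.6% of all genes). Ifngr1, the binding chain of the interferon gamma receptor, rose from 1862 ± 178 to 2784 ± 113 (log2 fold change 0.58, limma adjusted p 0.00155), and 0.73 with the length trend removed. Jak2, a kinase of that receptor, rose from 1116 ± 202 to 1892 ± 193 (0.77, adjusted p 0.00363). Ifnar1 rose by 0.32 (adjusted p 0.0165), a call lost with the length trend removed (0.0646), while Ifnar2 stood at 1870 ± 156 and 1878 ± 54.0 (adjusted p 0.936). Without C1q 1 or C1q 2 the limma adjusted p of Ifnar1 was 0.0640 and 0.0616.

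Among 10 inhibitors of the pathway 3 rose and 2 fell (30% and 20%, beside 19.7% and 18.7% of all genes), and with the length trend removed 0 rose and 1 fell with limma (3 and 1 at an unadjusted p below 0.05, and 3 and 2 with edgeR and 3 and 1 with DESeq2 without that step). The 4 of lowest p were Pias1, a SUMO ligase (0.47, limma adjusted p 0.00232), the phosphatase genes Ptpn11 (0.32, and -0.12 with the length trend removed) and Ptpn2 (-0.27), and Pias3 (0.26). With the length trend removed none of these 4 kept its call (limma adjusted p 0.0509 to 0.228). Ptpn11 also lost it without any 1 C1q library (0.0632 to 0.0762), Ptpn2 without any library but control 1 (0.0662 to 0.135) and Pias3 without any but control 3 (0.0822 to 0.149). Among 18 genes that sense nucleic acids or bacterial products and induce interferon 6 rose and 2 fell (33.3% and 11.1%). With the length trend removed 3 rose and 2 fell (16.7% and 11.1%), near and below the 14.6% and 18.8% of all genes in that fit. Tlr3, the endosomal receptor of double-stranded RNA, rose from 169 ± 37.2 to 375 ± 30.1 (1.17, adjusted p 0.00169) and Traf3, an adaptor, by 0.47 (0.06 with the length trend removed). The adaptor genes Myd88 and Sting1 fell, by 0.37 and 0.45 on the log2 scale, with limma adjusted p of 0.00456 and 0.00519.

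Further interferon-induced genes outside the 36 were counted in lists that are not fully separate from those above. Of 48 other type I induced genes, a list chosen with earlier results of these data known, 22 rose and 2 fell (45.8% and 4.17%). The shares of all genes were 19.7% and 18.7%, and the list's median log2 fold change was 0.45. Control 1 was the lowest of the 6 libraries for 38 of the 48, against 2476 of 16671 genes. Without control 1 the median was 0.28, and 16 rose and 3 fell with limma (33.3% and 6.25%, beside 16.8% and 15.5% of all genes). Without C1q 2 the counts were 14 and 1, and without C1q 3 they were 15 and 1 (29.2% and 31.2% higher, beside 14% of all genes in each fit). With the length trend removed 14 rose and 0 fell with limma (29.2% and 0%, beside 14.6% and 18.8% of all genes). In that fit 24 and 1 had an unadjusted p below 0.05. Without that step edgeR, which tested 46 of them, gave 23 and 3, and DESeq2 gave 25 and 2. Slfn5, of the schlafen family, rose from 3888 ± 76.9 to 6789 ± 246 (0.80, limma adjusted p 2.09e-04) and the helicase gene Ddx60 from 29.6 ± 18.0 to 126 ± 22.7 (2.19, adjusted p 0.00391). Eif2ak2, which encodes the double-stranded RNA kinase PKR, rose from 892 ± 111 to 1412 ± 120 (0.67, adjusted p 0.00248), and Znfx1, an RNA sensor, from 1676 ± 150 to 2694 ± 73.4 (0.69, adjusted p 6.04e-04). Among these 4 type I induced genes the length-adjusted changes were 0.26 to 1.81 and all stayed below an adjusted p of 0.05.

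Of 7 immunity-related GTPases, a family induced mainly by interferon gamma, Irgm2 rose (0.91, limma adjusted p 0.00556) and Irgm1 fell by 0.35 on the log2 scale (adjusted p 0.0464). The fall of Irgm1 was not called without any library but control 1 (0.0786 to 0.149). The 1 rise and the 1 fall were each 14.3% of the 7, beside 19.7% called higher and 18.7% lower of all genes. With the replicate block 3 of the 7 rose and 1 fell (42.9% and 14.3%, beside 21.3% and 19.7% of all genes). Of 6 other guanylate-binding proteins Gbp6 rose from 122 ± 42.2 to 256 ± 69.2 (1.09, adjusted p 0.0220), and Gbp11 was called higher at 0 to 0.772 in the controls and 2.11 to 9.75 with C1q, a level of a few reads. These 2 calls were 33.3% of the 6, with 0 called lower. Gbp6 lost its call without C1q 2 (0.0796) or C1q 3 (0.0528), and Gbp11 without any library but C1q 1 (limma adjusted p 0.0501 to 0.144). Class I antigen presentation genes showed 0 rises and 1 fall among 15 with limma (0% and 6.67%, beside 19.7% and 18.7% of all genes). At an unadjusted p below 0.05 the counts were 1 and 2, and they were 0 and 1 with edgeR and 1 and 1 with DESeq2. The fall was in the proteasome activator gene Psme2 (-0.50, adjusted p 0.0138), which was at 0.01 with the length trend removed and not called without C1q 1 (0.0534) or C1q 3 (0.0533). With the replicate block the class I counts were 2 and 3 (13.3% and 20%, beside 21.3% and 19.7% of all genes). Of 6 class II genes 0 were called with limma (0 at an unadjusted p below 0.05, 0 with DESeq2, 1 lower with edgeR, which tested 4).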

How the data were processed

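Per the submitters' processing notes, Trimmomatic, HISAT2, featureCounts and DESeq2 were used with build mm10. Their versions, the annotation and use of strand in counting were not given in these sources. The deposited signal is a normalised read count per Entrez gene, although the file headers name featureCounts columns: within each library 100% of the values were whole multiples of the value of 1 read (tolerance 0.001 read), which gave back the read counts. No gene had a mean below 1.00, and the totals count only reads on the genes in the table.

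Symbols and coordinates came from RefSeq GRCm38.p6 (16077 of 16671 IDs matched), and lengths of the longest transcript from GENCODE vM21 (14933 IDs, 89.6%). Near copies were sought with blast 2.17.0+. Genes were tested mainly by limma-trend (limma 3.58.1, R 4.3.3) on log2(value + 1) over all genes with a mean of at least 1, with an adjusted p threshold of 0.05. It was the test laid down for normalised values. Fold changes of low genes on this scale differed from those of the count models in either direction. Cmpk2 was at 1.46 against 0.94 with edgeR and 1.02 with DESeq2, and Gbp5 at 1.96 against 2.09 and 2.08. edgeR 4.0.16 and DESeq2 1.42.0 on the recovered reads were alternatives, with other pseudocounts (0.5, 5) and filters, the replicate block, each library left out, and removal of a loess trend (span 0.5) on transcript length. Alternatives chosen after seeing the data were thinning to 5379209 reads, leaving out both libraries numbered 1, and the length trend with the block. The model script was tested on simulated data.

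Members, gene lists, the markers and the rule for named genes were chosen with earlier results of these data known. The rule named every called member, the 2 of lowest p in each class, uncalled members that were the 2 highest of their class or whose groups did not overlap, and up to 4 called genes of each other list, with Ifnar1, Ifnar2 and Ifnb1 in any case. One further gene that the rule names is not reported here. Other members were named so that each is accounted for, and marker genes beside the libraries they mark. Replicates differed by more than sampling noise (chi-square per degree of freedom 16.7 to 40.7). Whether replicate numbers pair the libraries was read from the correlation of same-numbered deviations over all genes, which was 0.123, 0.175 and 0.132, all above the limit of 0.1. The pairing comes from the data, not from the labels.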

Additional observations from a re-analysis of the deposited data

How the results depend on the processing

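The 7 rises and 1 fall among the members were the same 8 genes at pseudocounts of 0.5 and 5 and with either filter, and edgeR and DESeq2 added Gbp3. With the replicate block 14 members were higher and 2 lower, and the block removed no call. With the length trend removed 0 were lower, and with the trend removed and the block 14 were higher and 0 lower. After thinning to the shallowest library 3 members were higher (Gbp2, Gbp7 and Ifih1) and 0 lower, or 8.33% and 0%. In that fit 2158 of all genes were higher (12.9%) and 2265 lower (13.6%). Without both libraries numbered 1, 1804 of all genes were higher and 1680 lower. Leaving out 1 library gave 2 to 10 higher members (2, or 5.56%, without C1q 3 and 10, or 27.8%, without control 3) and 0 to 1 lower. The members' median log2 fold change was then 0.18 to 0.54. Of all genes 2329 to 3659 were higher (14% to 21.9%) and 2259 to 3583 lower (13.6% to 21.5%). No called member changed sign under any alternative run. The depth of control 3 limits low genes such as Mx1, Oas3, Cmpk2 and Cxcl10, where it held 0 to 3 reads.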
